A study of Mus musculus with 6 samples.

Results

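The Ikaros family comprises the zinc-finger transcription factors Ikaros (Ikzf1), Helios (Ikzf2), Aiolos (Ikzf3), Eos (Ikzf4) and Pegasus (Ikzf5). They were taken by gene symbol, as 5 of the 15106 genes in the deposited count table, and all 5 passed the filter on low counts. Transcripts were counted in 4 libraries of regulatory T cells (Tregs, the suppressive T cells that depend on the transcription factor FOXP3) and 2 libraries of effector T cells (Teffs). Both populations were sorted by flow cytometry out of the skin of mice aged 6 weeks. All 6 libraries came from the FOXP3-GFP genotype, in which a fluorescent protein reports FOXP3, so the Teffs carry the reporter allele as well. Strain, sex, sort gates and the number of animals behind each library were not given in the sources used here. Because separate animals are not stated, p-values speak only for the spread among these samples, which could be technical.

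Ikaros family proteins bind DNA through a cluster of zinc fingers near their amino terminus and bind each other through further fingers at their carboxyl terminus, so the members present in a cell can form mixed dimers. They act largely as repressors, by bringing chromatin-remodelling and deacetylase complexes to their target genes. Ikaros is made throughout the lymphoid lineage and is needed for lymphocyte development. Helios is found in a large fraction of Tregs and helps to keep them stable, and Eos is a partner of FOXP3 in gene silencing. Aiolos is known from B cells and from Th17 cells, where it represses the Il2 gene. Pegasus is the most distant relative and is expressed in many tissues.

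The second DNA-binding finger shows how close the members are, and whether their reads could be mistaken for each other. Its coding bases follow, read from GENCODE vM21 transcripts on GRCm38 and written 5′ to 3′, with the codons of the zinc-holding cysteines and histidines in capitals. The positions are chr11:11754024-11754086 (plus strand) for Ikzf1, chr1:69570581-69570643 (minus) for Ikzf2 and chr11:98488940-98489002 (minus) for Ikzf3. They are chr10:128640229-128640291 (minus) for Ikzf4 and chr7:131392501-131392563 (minus) for Ikzf5.
Ikzf1: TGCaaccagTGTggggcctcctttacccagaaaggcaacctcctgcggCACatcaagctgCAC
Ikzf2: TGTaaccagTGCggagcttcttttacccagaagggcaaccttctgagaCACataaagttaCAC
Ikzf3: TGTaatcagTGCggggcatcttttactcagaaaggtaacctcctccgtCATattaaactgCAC
Ikzf4: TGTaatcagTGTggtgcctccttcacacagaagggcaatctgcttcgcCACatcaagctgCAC
Ikzf5: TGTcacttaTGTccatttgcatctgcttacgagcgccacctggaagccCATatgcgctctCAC
Ikzf1 and Ikzf2 differ at 12 of these 63 bases and code for the same residue at all 21 codons. The same holds for every pairing among Ikzf1, Ikzf2, Ikzf3 and Ikzf4, which differ by 10 to 15 bases, all of them silent. Ikzf5 shares its residue with Ikzf2 at 5 of the 21 codons. Among the first 4 members the longest run of identical bases within the finger is 15. Over whole annotated transcripts, 0 of the 5871 distinct 50-base windows of Ikzf1 and 0 of the 11844 of Ikzf2 occur in another member, and the same count of 0 was found for Ikzf3, Ikzf4 and Ikzf5. Read length was not given in the sources used here.

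Gene counts of a library came to 5582022 to 7046685 in Tregs and to 7468778 and 4902126 in Teffs. Genes with counts numbered 9602, 9838, 12605 and 11074 in Treg 1 to Treg 4, and 13197 and 11894 in Teff 1 and Teff 2. Spearman's correlation of counts over 11775 genes was 0.649 to 0.748 between Treg libraries and 0.883 between the Teff libraries. Between Treg and Teff libraries it was 0.700 to 0.815, so Treg libraries were no more alike than that. The part of this spread in the members' results was not tested. Foxp3, the defining transcription factor gene of Tregs, measured 103, 233, 154 and 183 CPM (counts scaled to library size) in Treg 1 to Treg 4, against 11.3 and 7.17 CPM in Teff 1 and Teff 2. Markers found in all T cells summed to 4908 to 9294 CPM in Tregs and to 8935 and 9833 CPM in Teffs. Treg 3 stood apart in its skin markers: 5 dermal fibroblast genes summed to 1991 CPM there, against 3.85 to 8.30 CPM in the other Treg libraries and 176 CPM in Teff 1 and 3.88 CPM in Teff 2. The 4 keratinocyte genes summed to 605 CPM in Treg 3, against at most 0.800 CPM in the other Treg libraries and 88.3 and 21.3 CPM in Teffs. Cd8a and Cd8b1, which mark CD8 T cells, summed to 0.1804 to 65.6 CPM in Tregs and to 142 and 93.6 CPM in Teffs. Cd163l1 and Sox13, of gamma-delta T cells, were at 0 counts throughout the Tregs and summed to 15.5 and 14.9 CPM in Teffs. Treg 4 stood apart in 5 myeloid genes, at 538 CPM against 115 to 171 CPM in the other Treg libraries and 224 and 154 CPM in Teffs. Klrb1c and Ncr1, of NK and innate lymphoid cells, summed to 24.0 CPM in Treg 4, against 0 CPM in the other Treg libraries. They summed to 1.59 and 8.72 CPM in Teffs. Ncr1 had 0 counts in every Treg library, so the value of Treg 4 was Klrb1c alone. The part of these cells in the members' values was not tested. In bulk libraries, fewer cells of one type and less RNA per cell cannot be told apart.

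Helios and Eos transcripts were abundant in Tregs and scarce in Teffs, while Ikaros transcripts were more abundant in Teffs. Aiolos overlapped between them, and Pegasus was low throughout. In edgeR's quasi-likelihood test, with p-values adjusted over 11775 genes, 0 of the 5 members passed, where 0.0425% of all genes did. The unadjusted p was under 0.05 for 3 members, Ikzf1, Ikzf2 and Ikzf4, against 4.73% of all genes. Ikzf2 and Ikzf4 had every Treg library above both Teff libraries, which was the case for 5.51% of all genes, and Ikzf1 had every Treg library below both, the case for 9.49%. DESeq2 called 2 members, Ikzf2 and Ikzf4, and 1.86% of the genes to which it gave an adjusted p. The authors' deposited table likewise has 2 members at an FDR under 0.05, and 0.285% of all genes. Limma-voom called 0 members and 0.0255% of all genes, with 3 members at an unadjusted p under 0.05, against 7.94% of all genes.

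**Figure D1:**
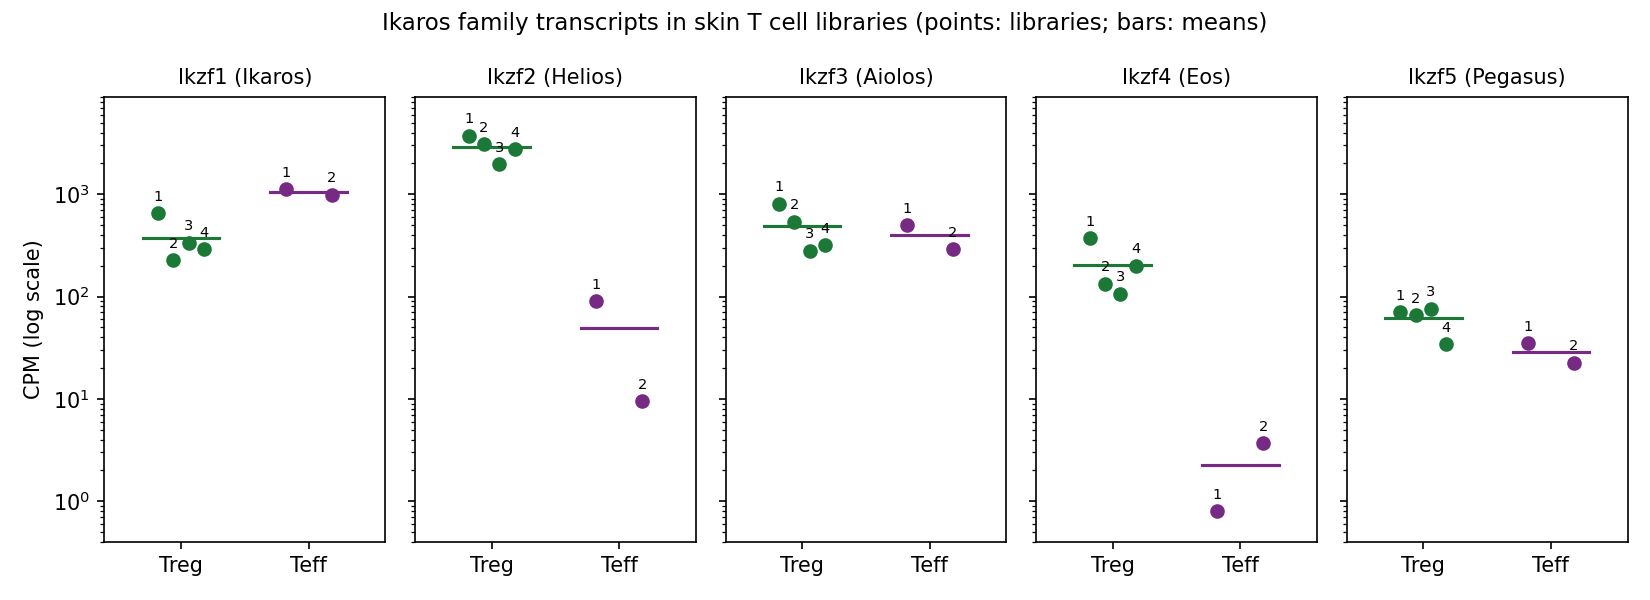
CPM (log scale) of each Ikaros family member in the 4 Treg and 2 Teff libraries; points are libraries, labelled by number, and horizontal bars are group means. Ikzf2 lies between 1966 and 3716 CPM in Tregs, above 89.6 and 9.50 CPM in Teffs, and Ikzf4 lies between 107 and 369 CPM, above 0.794 and 3.68 CPM.

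Helios (Ikzf2, ENSMUSG00000025997.13, on chromosome 1 from 69531214 to 69687245 of GRCm38) measured 3716, 3072, 1966 and 2753 CPM in Treg 1 to Treg 4, against 89.6 and 9.50 CPM in Teff 1 and Teff 2. Every Treg library was far above the higher Teff library, and Teff 1 was well above Teff 2. Tregs had raw counts of 20600, 19202, 11213 and 19299 and Teffs of 677 and 49. The log2 fold change, Treg minus Teff, was 5.86 ± 0.99 (SE), with a 95% interval of 3.57 to 8.14. Ikzf2 ranked 18 of all tested genes by p and missed the threshold after adjustment (edgeR adjusted p = 0.217). Without Teff 1 the log2 fold change was 8.23 (edgeR adjusted p = 0.0438), and without Teff 2 it was 4.99 (adjusted p = 0.373). With either left out, 1 Teff library remains, the spread comes from the Tregs alone and the lone Teff library is assumed to vary like them. DESeq2 gave 5.89 ± 0.66 (SE, adjusted p = 3.38e-16), and the authors' deposited table lists a log2 fold change of 5.78 with an FDR of 3.48e-05.

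Eos (Ikzf4, ENSMUSG00000002578.17, on chromosome 10 from 128630843 to 128645991) measured 369, 133, 107 and 200.2 CPM in Treg 1 to Treg 4, against 0.794 and 3.68 CPM in Teff 1 and Teff 2. Every Treg library was far above both Teff libraries, and among Tregs the first library was highest. In Teffs these levels stand for 6 and 19 counts, and in Tregs for 2048, 830, 610 and 1403. The log2 fold change was 6.52 ± 1.01 (SE), with a 95% interval of 4.19 to 8.85, larger in size than that of Ikzf2 and with an interval that overlaps it widely. Ikzf4 ranked 14 by p and missed the threshold (edgeR adjusted p = 0.168). Leaving out Teff 1 or Teff 2 gave 5.77 or 7.95, and leaving out any single library left the adjusted p between 0.231 and 0.554. DESeq2 gave 6.56 ± 0.80 (SE, adjusted p = 2.78e-13), and the authors' deposited table lists 6.48 with an FDR of 3.33e-05.

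The Teff libraries held Helios and Eos in opposite order. Relative to the Treg mean, Teff 1 held 3.12% of Ikzf2 and Teff 2 held 0.330%, whereas for Ikzf4 Teff 1 held 0.393% and Teff 2 held 1.82%. Other genes of Treg identity went both ways. Foxp3, Il2ra and Lrrc32 were higher in Teff 1, as Ikzf2 was, and Ctla4 was higher in Teff 2. Summed over 11 listed genes of Treg identity, the level was 2936 CPM in Teff 1 and 3184 CPM in Teff 2, where Treg libraries held 7531 to 11991 CPM. Most of the Teff sum came from Capg and Itgae, whose Teff means were 1518 and 975 CPM and whose Treg means were 1504 and 1908 CPM. The groups overlapped for Capg, Nrp1 and Gpr83 and not for the other 8. The sum therefore cannot show which Teff library held more of the transcripts that set Tregs apart. Per gene, Foxp3 stood at 6.69% of its Treg mean in Teff 1 and 4.26% in Teff 2, and Il2ra, which makes the IL-2 receptor high-affinity, at 6.92% and 2.19%. Lrrc32, the docking receptor of latent TGF-beta, was at 2.02% in Teff 1 and had no counts in Teff 2. Ctla4, an inhibitory receptor of Tregs, was at 3.604% in Teff 1 and 4.42% in Teff 2. The part of these Treg transcripts in the Ikzf2 level of Teff 1 was not tested.

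Ikaros (Ikzf1, ENSMUSG00000018654.17, on chromosome 11 from 11685003 to 11772926) measured 652, 226, 335 and 290.3 CPM in Treg 1 to Treg 4, against 1111 and 985 CPM in Teff 1 and Teff 2. All Treg libraries lay below both Teff libraries, and Treg 1 came nearest to them. The log2 fold change was -1.48 ± 0.44 (SE), with a 95% interval of -2.49 to -0.47. It missed the threshold (edgeR adjusted p = 0.721), also in DESeq2 (-1.45 ± 0.48, adjusted p = 0.114) and in the authors' deposited table (-1.53, FDR = 0.868). Leaving out any single library kept it between -1.89 and -1.301.

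Aiolos (Ikzf3, ENSMUSG00000018168.8, on chromosome 11 from 98464902 to 98546031) measured 802, 535, 281 and 318 CPM in Treg 1 to Treg 4, against 499 and 291 CPM in Teff 1 and Teff 2. The groups overlapped, with Treg 3 below both Teff libraries and Treg 1 and Treg 2 above both. The log2 fold change was 0.29 ± 0.50 (SE), with a 95% interval of -0.87 to 1.46, so that a moderate difference either way cannot be told from none (edgeR adjusted p = 0.999976). Its sign turned without Treg 1 or without Teff 2, at -0.06 in each case.

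Pegasus (Ikzf5, ENSMUSG00000040167.16, on chromosome 7 from 131388652 to 131410521) measured 70.0, 65.4, 76.3 and 34.2 CPM in Treg 1 to Treg 4, against 34.8 and 22.5 CPM in Teff 1 and Teff 2. Treg 4 lay between both Teff libraries, and the other Tregs lay above them. The log2 fold change was 1.10 ± 0.72 (SE), with a 95% interval of -0.57 to 2.77 (edgeR adjusted p = 0.999976). This value is uncertain as a measure of Pegasus, since exons of Pstk, a gene on the opposite strand that encodes a kinase of selenocysteine synthesis, cover 81.3% of the exonic bases of Ikzf5. Whether counting used strand was not given in the sources used here. Pstk itself had 312, 0, 150 and 66 counts in Treg 1 to Treg 4 and 154 and 74 counts in Teff 1 and Teff 2. Its order differs from the 388, 409, 435 and 240 counts of Ikzf5 in Tregs and its 263 and 116 in Teffs. That order cannot show how reads over the shared bases were counted, since such reads may have been set aside as ambiguous for both genes. Other genes overlap 1.24% of the exonic bases of Ikzf2, 0.617% of Ikzf4 and none of Ikzf1 or Ikzf3. For Foxp3, given beside the members, other genes overlap 31.5% of the exonic bases, and those on the same strand 18.6%. The part of this overlap in the Foxp3 counts was not tested.

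**Figure D2:**
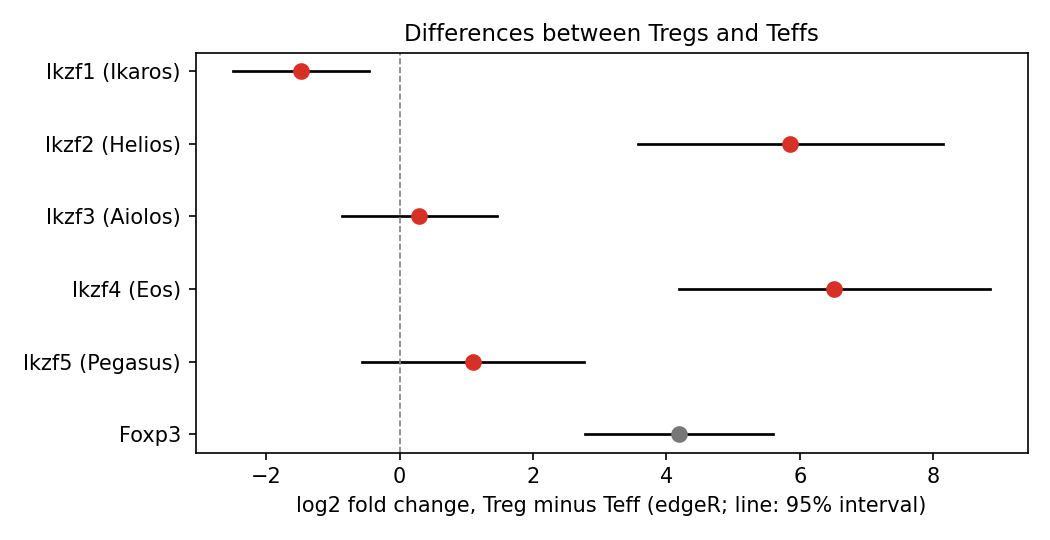
Log2 fold change, Treg minus Teff, of each Ikaros family member and of Foxp3 with its 95% interval from edgeR (4 Treg and 2 Teff libraries); the dashed line marks no difference. The intervals of Ikzf2 (3.57 to 8.14) and Ikzf4 (4.19 to 8.85) lie above 0 and that of Ikzf1 (-2.49 to -0.47) below it, and those of Ikzf3 and Ikzf5 include 0; none of the members passed after adjustment over all genes.

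To set the members against each other, CPM was divided by the exonic length of each gene in kilobases, since longer genes collect more reads. On that scale Helios was the leading member in all 4 Treg libraries, at 248 ± 62.6 CPM per kilobase (SD, n = 4) in Tregs and 4.27 ± 4.88 (SD, n = 2) in Teffs. Ikaros led in both Teff libraries, at 65.1 ± 32.8 in Tregs and 181 ± 15.5 in Teffs. Aiolos was at 55.3 ± 27.4 in Tregs and 45.1 ± 16.8 in Teffs, so in Tregs Ikaros and Aiolos did not differ beyond their spread, and Treg 2 had them in the reverse order. Eos was at 33.8 ± 19.7 in Tregs and 0.373 ± 0.341 in Teffs, and Pegasus at 10.7 ± 3.27 in Tregs and 5.01 ± 1.52 in Teffs. Eos and then Pegasus came last in every Treg library. In Teffs Eos came last, and Helios and Pegasus changed places between Teff 1 and Teff 2. The exonic length of Aiolos is 8754 bases and its longest annotated transcript has 4607. With the longest transcript as length, the level of Aiolos came to 105 ± 52.0 in Tregs and 85.8 ± 32.0 in Teffs. On that length Ikaros was at 72.8 ± 36.7 in Tregs and 203 ± 17.3 in Teffs, so that the mean order of Ikaros and Aiolos in Tregs turned round.

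Among 14414 genes with a known length, Ikzf2 ranked 97, 109, 187 and 144 by CPM per kilobase in Treg 1 to Treg 4, against 5309 and 9791 in Teff 1 and Teff 2. Ikzf1 ranked 398, 1449, 776 and 1003 in Tregs, against 172 and 180 in Teffs. Helios thus held a place among the most abundant transcripts of Tregs that is close to the place Ikaros held in Teffs. Ikzf4 ranked 844, 2590, 3075 and 1578 in Tregs, against 11965 and 10042 in Teffs.

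**Figure D3:**
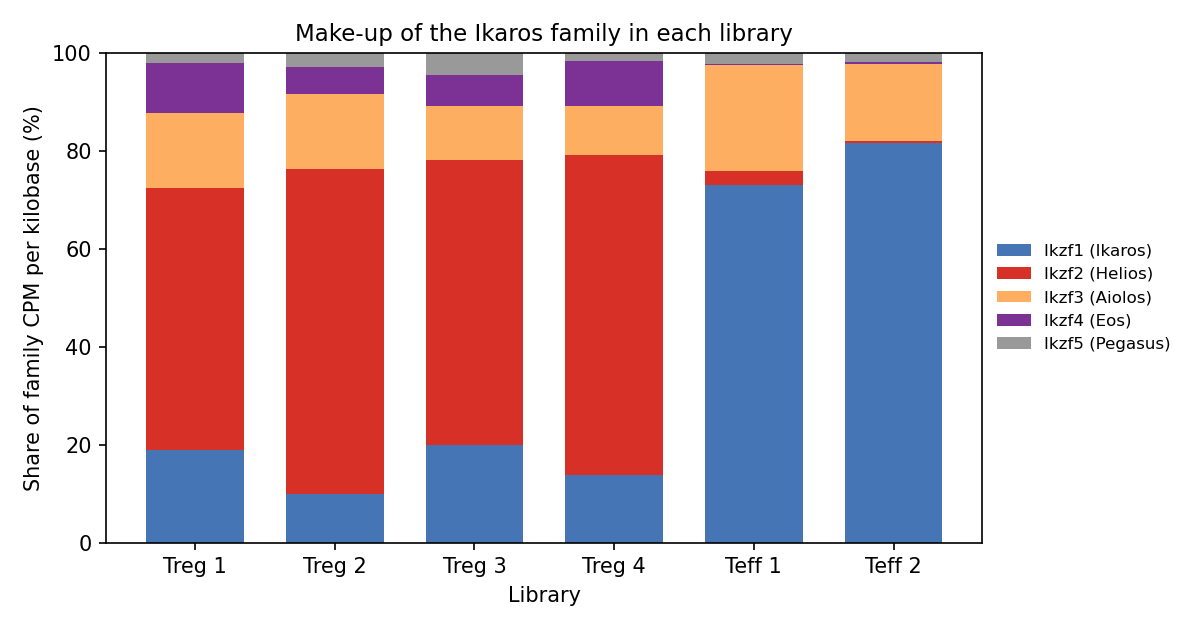
Share of each member in the summed CPM per kilobase of the Ikaros family (percent), 1 bar per library, Tregs on the left. Ikzf2 makes up 53.5% to 66.4% of the bar in Tregs and 2.93% and 0.391% in Teffs, where Ikzf1 makes up 73.1% and 81.5%.

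The make-up of the family differed between the populations. Helios took 53.5%, 66.4%, 58.3% and 65.3% of the family's CPM per kilobase in Treg 1 to Treg 4, against 2.93% and 0.391% in Teff 1 and Teff 2. Ikaros took 18.9%, 9.83%, 19.95% and 13.8% in Tregs, against 73.1% and 81.5% in Teffs. These shares did not overlap between the groups for either gene. Shares within a library are tied to each other, so that of Ikaros falls as that of Helios rises. In CPM, the groups did not overlap for 15% of all genes. That is another measure than a share or a summed level, for which no such background was drawn up. Aiolos held 12.9% ± 2.81 (SD, n = 4) in Tregs and 18.8% ± 4.08 (SD, n = 2) in Teffs, or 18.7% ± 3.80 in Tregs and 28.0% ± 5.33 in Teffs with the longest transcript as length. On exon lengths, Eos held 7.80% ± 2.31 in Tregs and 0.172% ± 0.172 in Teffs, and Pegasus 2.79% ± 1.304 in Tregs and 2.095% ± 0.305 in Teffs. The summed level was 598, 398, 290.5 and 363 CPM per kilobase in Tregs, against 263 and 209 in Teffs, so that the totals did not overlap either. Its mean was 413 in Tregs, where Helios made up 248, and 236 in Teffs, where Helios made up 4.27. The higher total in Tregs thus came with Helios, while Ikaros was lower there, at 65.1 against 181 in Teffs.

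Ratios of members within a library do not depend on how libraries are scaled, and 4 ratios to Ikzf1 were compared. The log2 ratio of Ikzf2 to Ikzf1 counts was 2.51, 3.76, 2.55 and 3.25 in Treg 1 to Treg 4, against -3.63 and -6.68 in Teff 1 and Teff 2, a difference of 8.17. That of Ikzf4 to Ikzf1 was -0.82, -0.77, -1.65 and -0.54 in Tregs, against -10.34 and -8.03 in Teffs, a difference of 8.24. For Ikzf3 to Ikzf1 the ratio was 0.30, 1.24, -0.25 and 0.13 in Tregs, against -1.15 and -1.76 in Teffs, a difference of 1.81. The groups did not overlap in any of the 4 ratios, that of Ikzf5 included (a difference of 2.67), where 34% of all other tested genes did not overlap in their ratio to Ikzf1. All 4 ratios share Ikzf1, whose own log2 fold change was -1.48, and Ikzf3 and Ikzf5 overlapped between the groups when taken alone. Per kilobase, Helios exceeded Ikaros by 2.84-fold to 6.76-fold in Tregs, and Ikaros exceeded Helios by 24.9-fold and 209-fold in Teff 1 and Teff 2. The exact two-sided permutation test gave p = 0.0667 for each ratio, which is the smallest value that 15 arrangements of 4 and 2 libraries allow (0.0667 after Benjamini-Hochberg adjustment over the 4 ratios).

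In Tregs the first library was highest in Ikzf1, Ikzf2, Ikzf3 and Ikzf4 at once. Treg 3 was lowest in Ikzf2, Ikzf3 and Ikzf4 and carried the fibroblast and keratinocyte transcripts given above. Without Treg 3 the log2 fold changes were 6.01 for Ikzf2, 6.73 for Ikzf4 and -1.42 for Ikzf1, and 0 members were called.

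The genes whose pattern over the 6 libraries was most like that of Ikzf2 were Lrrc32, Tnfrsf4 and Il2ra. Pearson's r of log2 CPM was 0.997 for Lrrc32 and 0.997 for Tnfrsf4, which encodes the receptor OX40, and 0.996 for Il2ra. Of 8633 genes compared, 47 had an r above 0.95 with Ikzf2. All points share 6 libraries that fall into 2 separate groups, so these values mostly describe the step between the groups and are given as a description. Lrrc32 was at 248, 245, 237 and 213 CPM in Tregs, against 4.77 and 0 CPM in Teffs, and Tnfrsf4 at 2869, 3018, 1676 and 3058 CPM in Tregs, against 228 and 58.7 CPM in Teffs. Both, like Ikzf2, were higher in Teff 1 than in Teff 2. Genes chosen for a high r over these same libraries tend to share such an order, so it adds nothing to the r.

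Nearest to Ikzf4 were Klf4 (r = 0.996), a Krüppel-like factor, Tesk1 (r = 0.993), a protein kinase, and Arnt2 (r = 0.988), a bHLH-PAS factor. Each was higher in Teff 2 than in Teff 1, an order that the choice by r favours. Klf4 was at 104, 81.0, 67.1 and 77.5 CPM in Tregs, against 16.02 and 26.4 CPM in Teffs. Nearest to Ikzf1 were Tnfsf14 (r = 0.991), the TNF family ligand LIGHT, Pydc3 (r = 0.989) and Cd226 (r = 0.979), an activating receptor. Tnfsf14 was at 39.7, 1.12, 4.56 and 1.997 CPM in Tregs, against 102 and 139 CPM in Teffs. Treg 1 came nearest to the Teffs, a likeness to Ikzf1 for which Tnfsf14 was chosen. For Ikzf3 they were Eri2 (r = 0.987), Zfp317 (r = 0.984) and Ppm1f (r = 0.978), and for Ikzf5 Wsb1 (r = 0.990), Cblb (r = 0.988) and Itfg3 (r = 0.984).

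**Figure D4:**
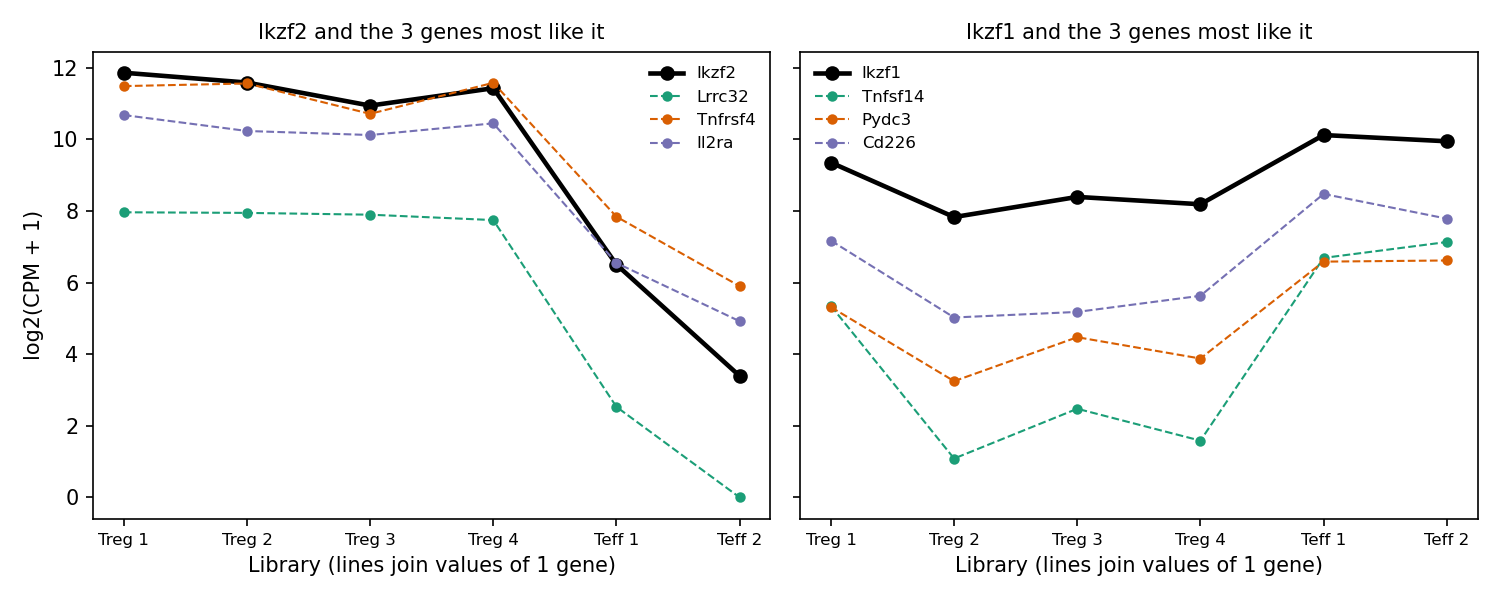
Log2(CPM + 1) of Ikzf2 (left) and Ikzf1 (right), in black, with the 3 genes most like each over the 6 libraries. On the left every gene steps down between Treg and Teff libraries and is lower in Teff 2 than in Teff 1, with Lrrc32 at 4.77 and 0 CPM there; on the right Treg 1 lies above the other Tregs, as with Tnfsf14 at 39.7 CPM.

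Genes for the complexes that Ikaros family proteins recruit showed no called difference. Of 18 genes of the NuRD, Sin3, CtBP and BRG1 complexes tested in edgeR, 0 passed over all genes and 0 had an unadjusted p under 0.05. Of all tested genes, 0.0425% passed and 4.73% had an unadjusted p under 0.05. Log2 fold changes were positive for 4 and negative for 14, with a median of -0.21 against 0.07 over all tested genes (3 positive and 15 negative with upper-quartile scaling). Rbbp4, a histone-binding subunit, averaged 298 ± 141 CPM in Tregs against 527 ± 117 CPM in Teffs (SD, n = 4 and n = 2). Chd3, a remodelling ATPase of NuRD, averaged 211 ± 94.5 CPM in Tregs against 123 ± 51.0 CPM in Teffs. Mta2, a scaffold of NuRD, averaged 74.7 ± 31.9 CPM in Tregs against 121 ± 29.9 CPM in Teffs. Its relative Mta1 averaged 22.7 ± 19.996 CPM in Tregs against 43.5 ± 22.4 CPM in Teffs. The groups overlapped for every one of the 18, where 15% of all genes did not overlap.

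The CRL4-cereblon ubiquitin ligase in human cells destroys Ikaros and Aiolos in the presence of thalidomide analogues. Of its 5 genes, 0 passed in edgeR and 0 had an unadjusted p under 0.05. Over all genes these shares were 0.0425% and 4.73%. The median log2 fold change was -0.16, with 2 positive and 3 negative. Groups did not overlap for 1 of the 5, against 15% of all genes, a share near the background. It was Cul4a, a cullin scaffold, at 48.5, 69.3, 32.6 and 62.9 CPM in Tregs, against 20.9 and 15.3 CPM in Teffs (edgeR log2 fold change 1.56 ± 0.81, adjusted p = 0.999976). Cul4b averaged 40.0 ± 20.4 CPM in Tregs against 53.3 ± 19.5 CPM in Teffs. Ddb1, the adaptor, averaged 214 ± 107 CPM in Tregs against 239 ± 116 CPM in Teffs. Rbx1, the RING subunit, averaged 86.3 ± 32.7 CPM in Tregs against 103 ± 15.97 CPM in Teffs.

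Genes described as targets of the family in lymphocytes lay mostly lower in Tregs. Of 13 listed, 9 were tested: 0 passed over all genes in edgeR and 3 had an unadjusted p under 0.05. Over all genes these shares were 0.0425% and 4.73%. Log2 fold changes were negative for 8 and positive for 1, with a median of -2.33. Il2, the growth factor gene that Aiolos and Eos with FOXP3 are known to repress, had 3 counts over all Treg libraries, against 764 and 500 counts in Teff 1 and Teff 2 (edgeR adjusted p = 0.217). Il10, an anti-inflammatory cytokine gene that Ikaros is known to promote, was the member on the other side, at 447, 596, 248 and 561 CPM in Tregs, against 0 and 6.98 CPM in Teffs (adjusted p = 0.344). Ifng, a Th1 cytokine gene that Ikaros is known to silence in Th2 cells, was at 16.2, 43.8, 10.2 and 47.9 CPM in Tregs, against 232 and 393 CPM in Teffs (adjusted p = 0.283). Satb1, a chromatin organiser repressed by Eos with FOXP3, was at 0, 0.480, 7.01 and 15.7 CPM in Tregs, against 34.6 and 29.5 CPM in Teffs (edgeR log2 fold change -2.46 ± 1.97, adjusted p = 0.999976). Groups did not overlap for 6 of the 9, which is the case for 15% of all genes. The 9 include Cd8a, one of the CD8 T cell markers given above as higher in Teffs. Without it, 7 of 8 log2 fold changes were negative, with a median of -2.08, and groups did not overlap for 5. These 8 still include Il2 and Ifng, which themselves mark conventional effector T cells. The list was drawn up with results of these data known, and its direction is not independent evidence of how any family member acts.

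Foxp3 and genes of factors that bind FOXP3 or act with it in Tregs were less uniform. Of 14 tested, Foxp3 itself included, 0 passed in edgeR and 2, Foxp3 and Hdac7, had an unadjusted p under 0.05. Over all genes these shares were 0.0425% and 4.73%. Log2 fold changes were positive for 9 and negative for 5, with a median of 0.31 (8 and 6 with upper-quartile scaling). The 13 genes other than Foxp3 had 8 positive and 5 negative values, a median of 0.23 and 1 unadjusted p under 0.05. Hdac7, a deacetylase that binds FOXP3, was at 289, 569.9, 162 and 301 CPM in Tregs, against 82.2 and 133 CPM in Teffs (edgeR log2 fold change 1.62 ± 0.56, adjusted p = 0.731). Stat5a, which carries the IL-2 signal, was at 136, 231, 39.6 and 158 CPM in Tregs, against 27.3 and 69.8 CPM in Teffs, and the groups overlapped through Treg 3. Irf4, a factor of effector Tregs, was at 671, 578, 210 and 339 CPM in Tregs, against 223 and 216 CPM in Teffs, and overlapped through Treg 3 as well.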

How the data were processed

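The authors deposited 1 table of raw counts per gene for 6 libraries, with their own comparison of the groups (log2 fold change, mean log2 CPM, p-value and false discovery rate), per the file headers. Libraries were made with a SMARTer low-input kit, per the labels' protocols. HTSeq 0.6.1, SAMtools 0.1.19.0, Bowtie2 2.1.0.0, TopHat2 2.0.12, CASAVA 1.8.2 and mm10 are named in the submitters' processing notes, while annotation, strand setting and test were not given in the sources used here. For the members, deposited log2 fold changes run in the direction of their counts, Treg over Teff. Counter rows that name no gene (3 rows, 88.0% to 90.2% of column totals) were left out. The counter of alignments that were not unique held 61.2% (Treg 1) to 66.2% (Teff 1) of column totals. Its part in the members' reads was not tested.

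Counts were tested with edgeR 4.0.16 (R 4.3.3): filterByExpr (smallest count 10, 11775 genes kept), TMM scaling, quasi-likelihood F test on group alone, Benjamini-Hochberg adjustment over all tested genes, threshold 0.05. SE is the fold change divided by the root of F. Alternatives were DESeq2 1.42.0, limma-voom 3.58.1, other scalings and filters, each library left out, and a block on the replicate number. Lengths are exon unions of GENCODE vM21 (GRCm38), matched by symbol for 14414 genes. Ratios used counts plus 0.5, and likeness used log2 CPM with a prior count of 2 in genes at a mean CPM of 10 or more (the 3 highest r, gene models and receptor segments left out). Named genes were the 5 members, Foxp3, Il2ra, Ctla4 and Lrrc32, those likeness genes, and up to 4 per biology list with the largest fold at a mean CPM of 10 or more. A single gene's 3 counts correspond to 0.397 to 0.581 CPM, which covers counting error only. The scripts were tested on simulated data. The members, lists and rules were chosen with earlier results of these data known.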

Additional observations from a re-analysis of the deposited data

How the results depend on the processing

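No member reversed under another scaling, filter or test, and 2 values reversed when a library was left out: the log2 fold change of Ikzf3 was -0.064 without Treg 1 and -0.058 without Teff 2. Ikzf2 was called by DESeq2 (5.89), without a filter on low counts (5.86, edgeR adjusted p = 0.0181), with the replicate block (6.81, adjusted p = 0.0425) and without Teff 1 (8.23), where the lone Teff library left is assumed to vary like the Tregs. Ikzf4 was called by DESeq2 (6.56) and without a filter (6.52, adjusted p = 0.0220). The count of members called was 0 in the reported fit, 2 with DESeq2, 2 without a filter and 1 with the block, and 0 to 1 with a library left out. The cause was not tested. With a library left out, log2 fold changes ran from 4.99 to 8.23 for Ikzf2, 5.77 to 7.95 for Ikzf4, -1.89 to -1.301 for Ikzf1, -0.06 to 0.73 for Ikzf3 and 0.79 to 1.44 for Ikzf5. Over all genes, edgeR called 5, DESeq2 184, limma-voom 3, 19 without a filter and 15 with the block. EdgeR called 2 without Teff 1 and 0 without any other single library.

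Replicate numbers 1 and 2 occur in both groups. Nothing in the labels ties a number to an animal or a batch, so the libraries were not treated as pairs. Deviations of same-numbered libraries correlated at -0.04 and 0.15 over 11775 genes, and those of other-numbered libraries at -0.33 to 0.33. With 2 Teff libraries the deviations mirror each other, and the values cannot show whether more than a number is shared. The block takes Treg 3 and Treg 4 out of the comparison. The median log2 fold change of all genes was 0.07, -0.04 with upper-quartile scaling, -0.45 in limma-voom and -0.64 with the block. With the longest transcript as length, levels per kilobase became 203 for Ikzf1 in Teffs, and 105 for Ikzf3 in Tregs and 85.8 in Teffs. Ratios to Ikzf1 kept their sign in all 8 alternatives each. With 2 Teff libraries, counts of 6 and 19 (Ikzf4) limit how exactly the Teff level is known.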
